A study of Mus musculus with 36 samples.

Results

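The 9 genes described here belong to the epithelial to mesenchymal transition: the transcription factors Snai1, Snai2, Zeb1, Zeb2, Twist1 and Twist2, the intermediate filament gene Vim, and the cadherins Cdh1 and Cdh2. They were chosen by name, out of 22379 genes of the annotation that have an Entrez identifier. For each gene and mouse, the peaks of 2 histone marks within 3 kb of any annotated transcript start (GENCODE vM21, mm10) were recorded, with their width and the number of bases of that window that they covered (covered bases). H3K4me3 (K4me3) is a mark of active or poised gene starts, and H3K27me3 (K27me3) is the mark that EZH2, the catalytic subunit of the Polycomb repressive complex, places on repressed genes through its SET domain.

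The data are ChIP-Seq peak lists from whole mouse pancreas, with 1 list per mark for each of 6 mice, 3 of each of 2 genotypes. All mice received tamoxifen by gavage at 2 to 4 months of age and were taken 22 days later, and the study used both sexes, with the sex of each mouse not given in the sources used here. Control mice are labelled wildtype, which in the study means C57BL/6 mice or mice with only the Mist1creERT allele. Ezh2ΔSET mice (Mist1creERT/+EZH2[delta]SET in the labels) lose the Ezh2 exons that encode the SET domain. The Cre is knocked into Mist1 (Bhlha15) and acts in acinar cells, whereas the chromatin came from all cells of the tissue. Thus Ezh2ΔSET mice carry a disrupted Mist1 allele that some or all control mice may lack, and any effect of it on the marks and that of the Ezh2 deletion cannot be told apart. The study pooled both kinds of control mice on the premise that a lost Mist1 copy leaves expression as it was, and the marks were not compared between them here.

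Loss of E-cadherin from cell junctions and gain of N-cadherin and vimentin are the textbook steps of the transition. SNAI, ZEB and TWIST proteins bind E-box motifs and repress or activate these genes, and the miR-200 microRNAs target Zeb1 and Zeb2 messages. In resting epithelia the genes of the factors are often held by Polycomb, so a gene start with both marks is commonly called bivalent or primed.

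Read counts were not part of the peak lists, so the depth behind each list is unknown and a missing peak is not proof of a missing mark. The lists held 17399 to 25885 K4me3 peaks and 21419 to 31273 K27me3 peaks. Control replicate 2 stood apart: it had the fewest peaks of both marks but the most genes with K27me3 at a start, 5474 against 2357 to 3463 in the other mice, and the most with both marks, 2753 against 484 to 1094. All 8 acinar markers had K4me3 in all 6 mice, with 26683 covered bases in sum in control replicate 2 and 49652 to 51736 in the other mice. Of 5 leukocyte markers, 4 (Ptprc, Cd3e, Spi1 and Laptm5) had a K4me3 peak in control replicate 2, with 14854 covered bases in sum, and Ptprc and Laptm5 alone had one in Ezh2ΔSET replicate 2 (1002 bases). The other 4 mice had no peak at any of the 5, and Adgre1 had none in any mouse. These mice recur below, and the part of leukocyte chromatin in any result was not tested. In bulk tissue, fewer cells of a type and less of a mark per cell cannot be told apart.

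The gene starts carry different sequences, which are shown beside the marks. The marks were read in GENCODE windows of 6001 bases or more, so each sequence is a small part of where they were read. For Vim, the printed stretch begins after the first start from which its peak positions are measured. RefSeq (GRCm38.p6) gave a promoter, from 250 bases before to 50 after a start, for 5 of the 9 genes: Twist1, Twist2, Snai1, Vim and Zeb2, the last with 4 starts. Capitals mark CG dinucleotides, the base step on which CpG islands are defined. Twist1 (chr12:33957421-33957720, + strand) and Twist2 (chr1:91801211-91801510, + strand) were the members with K27me3 and almost no K4me3.
Twist1: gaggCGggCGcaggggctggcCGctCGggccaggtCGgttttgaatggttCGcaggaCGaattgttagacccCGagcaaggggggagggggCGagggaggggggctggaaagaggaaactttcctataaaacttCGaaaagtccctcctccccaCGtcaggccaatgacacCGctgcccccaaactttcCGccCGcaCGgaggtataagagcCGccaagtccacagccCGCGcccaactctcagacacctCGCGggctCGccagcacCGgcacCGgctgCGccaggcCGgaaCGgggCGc
Twist2: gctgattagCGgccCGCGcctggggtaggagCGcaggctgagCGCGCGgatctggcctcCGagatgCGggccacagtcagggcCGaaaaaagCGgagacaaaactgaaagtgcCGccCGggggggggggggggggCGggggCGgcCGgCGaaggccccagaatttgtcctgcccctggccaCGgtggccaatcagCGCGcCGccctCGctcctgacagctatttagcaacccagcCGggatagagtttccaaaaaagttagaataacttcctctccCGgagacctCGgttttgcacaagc
Snai1 (chr2:167537945-167538244, + strand) and Vim (chr2:13574061-13574360, + strand) had K4me3 and almost no K27me3.
Snai1: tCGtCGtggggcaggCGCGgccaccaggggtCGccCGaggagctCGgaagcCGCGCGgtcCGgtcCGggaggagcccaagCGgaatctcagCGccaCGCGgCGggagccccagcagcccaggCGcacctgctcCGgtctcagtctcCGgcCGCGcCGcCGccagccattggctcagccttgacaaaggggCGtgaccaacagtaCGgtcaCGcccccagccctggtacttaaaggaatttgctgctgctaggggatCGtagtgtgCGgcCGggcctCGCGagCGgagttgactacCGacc
Vim: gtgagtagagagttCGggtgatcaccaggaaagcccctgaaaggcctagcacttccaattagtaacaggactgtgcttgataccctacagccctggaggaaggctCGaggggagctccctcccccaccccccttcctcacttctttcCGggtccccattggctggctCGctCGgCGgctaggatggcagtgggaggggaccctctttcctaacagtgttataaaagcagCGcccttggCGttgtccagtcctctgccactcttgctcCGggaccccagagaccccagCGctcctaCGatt
Zeb2 had both marks in its windows, and 2 of its starts are shown. At the first (chr2:45117393-45117692, - strand), a K27me3 peak covered the start in 4 of 6 mice, and a K4me3 peak covered it in 1 and began after it in the other 5. The inner start (chr2:45110228-45110527, - strand) lies farther into the gene.
Zeb2, first start: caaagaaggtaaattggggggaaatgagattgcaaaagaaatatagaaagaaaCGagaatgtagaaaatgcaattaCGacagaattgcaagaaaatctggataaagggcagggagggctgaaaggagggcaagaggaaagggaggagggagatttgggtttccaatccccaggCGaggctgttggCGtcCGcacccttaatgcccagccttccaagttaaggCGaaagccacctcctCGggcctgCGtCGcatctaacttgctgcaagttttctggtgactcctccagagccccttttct
Zeb2, inner start: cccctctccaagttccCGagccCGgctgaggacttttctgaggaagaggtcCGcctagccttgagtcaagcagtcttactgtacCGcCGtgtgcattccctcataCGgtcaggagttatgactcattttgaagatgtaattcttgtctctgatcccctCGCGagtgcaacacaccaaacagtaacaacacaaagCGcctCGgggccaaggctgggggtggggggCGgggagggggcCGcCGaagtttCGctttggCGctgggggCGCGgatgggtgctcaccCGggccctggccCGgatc
Snai1 held 34 CG dinucleotides in 300 bases, Twist1 27, Twist2 25, Vim 11, and Zeb2 9 at the first and 19 at the inner start, beside a median of 7 over all 32851 promoters. Thus CG-rich promoters were found among genes with K4me3 alone and among genes with K27me3 alone. The letters CACCTG or CAGGTG, the 2 strands of the E-box form that SNAI and ZEB proteins prefer, occurred once, in Snai1, whereas 20.2% of all promoters hold one. The broader E-box CANNTG, which includes that form and reads alike on both strands, was likewise found only in Snai1 among these sequences and in 72.3% of all promoters.

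The question put to the data was which of these genes carry an active, a repressive or a double mark in the pancreas, and whether loss of the EZH2 SET domain moves them. K4me3 was present in all 6 mice at 5 of the 9 genes (Snai2, Zeb1, Zeb2, Vim and Cdh1), near the background of 56.6% of all genes, in 4 at Snai1 and at Cdh2, in 1 at Twist1 and in none at Twist2. K27me3 was present in all 6 mice at Snai2 and Twist1, beside 3.56% of all genes, in 5 at Zeb1 and Zeb2, in 4 at Twist2 and Cdh2, in 1 each at Vim and Cdh1, and in none at Snai1. Cdh1 and Vim thus had K4me3 with K27me3 in 1 mouse each, the Twist genes had K27me3 with K4me3 in 1 mouse at most, and Snai2, Zeb1 and Zeb2 had both marks in 5 or 6 mice.

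**Figure D1:**
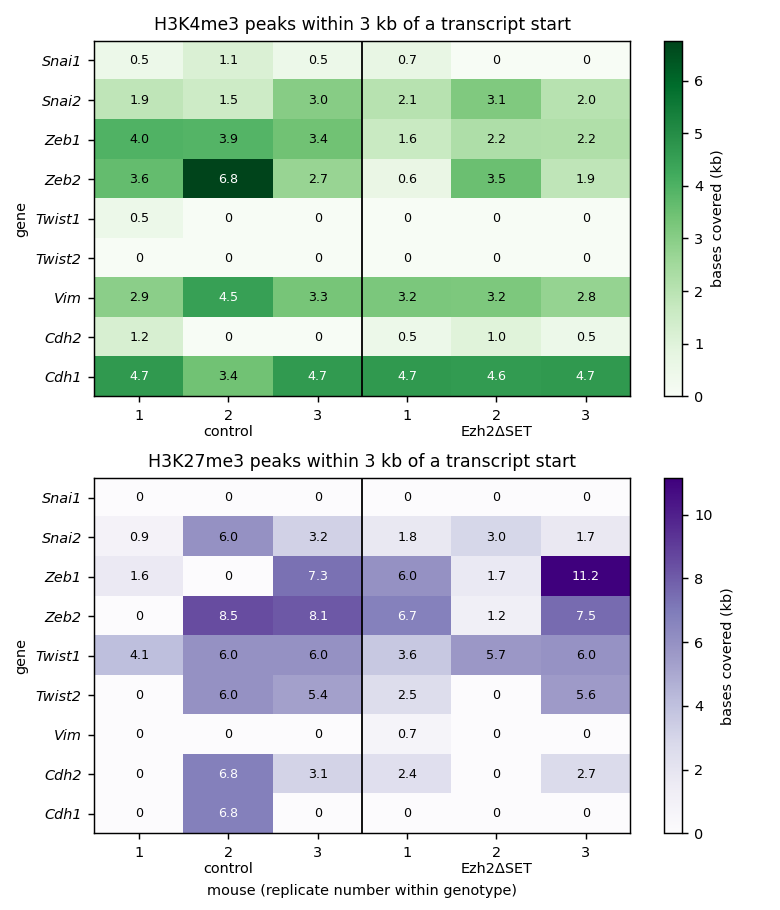
Covered bases (kb) within 3 kb of a transcript start for the 9 genes (rows) in each of the 6 mice (columns, by genotype and replicate), K4me3 above and K27me3 below, with a colour scale for each mark. Cdh1 has K4me3 in every column, Twist1 has K27me3 in every column, and Snai1 has no K27me3 in any.

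In all 3 control mice, 6 of the 9 genes had K4me3, beside 57.1% of all genes, and 6 did in all 3 Ezh2ΔSET mice (60.1% of all genes). These sets differed by 1 gene each: Snai1 was in the control set alone and Cdh2 in the Ezh2ΔSET set alone. At the narrowest width that was called, 501 bases, were the Snai1 peaks of control replicates 1 and 3 and the widest Cdh2 peak of each Ezh2ΔSET mouse, whereas the Snai1 peak of control replicate 2 had 1145 bases. K27me3 was found in all 3 mice at 2 of the 9 genes in control (Snai2 and Twist1) and at 4 in Ezh2ΔSET pancreas (Snai2, Zeb1, Zeb2 and Twist1), beside 5.74% and 7.33% of all genes. Both marks were found in all 3 mice at Snai2 in control and at Snai2, Zeb1 and Zeb2 in Ezh2ΔSET mice, beside 1.21% and 1.64% of all genes. These counts depended on the window and the number of peaks. With a window of 1 kb, K27me3 was found in all 3 mice at Twist1 alone in each genotype, beside 4.07% of all genes in control and 5.42% in Ezh2ΔSET mice, and both marks at 0 members in either, beside 0.635% and 0.88%. With equal numbers of widest peaks, K27me3 was again shared at Twist1 alone (4.77% and 5.93% of all genes) and both marks at 0 members (0.786% and 0.845%). K4me3 was then shared at 5 members in control (Snai2, Zeb1, Zeb2, Vim and Cdh1) and at 3 in Ezh2ΔSET mice (Snai2, Vim and Cdh1), beside 54.9% and 55.1%, so that the sets differed by Zeb1 and Zeb2 in place of Snai1 and Cdh2. No member had overlapping peaks of both marks in all 3 mice of a genotype. The mean share of the 9 genes with overlapping peaks was 22.2% in control and 18.5% in Ezh2ΔSET mice, beside 3.7% and 2.01% of all genes, and at Zeb1 the marks lay mostly at starts 139 kb apart. Without control replicate 2, both marks were shared by the remaining control mice at Snai2 and Zeb1 (1.76% of all genes), and K27me3 at Snai2, Zeb1 and Twist1 (8.3%). Without control replicate 1, those left shared K27me3 at Snai2, Zeb2, Twist1, Twist2 and Cdh2, more genes than the 4 of Ezh2ΔSET mice. The share over all genes is not given for that case, and fewer mice share more genes by construction. Without Ezh2ΔSET replicate 2, the remaining Ezh2ΔSET mice shared K27me3 at 6 of the 9 genes (11.7% of all genes) and both marks at 4 (3.21%).

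Cdh1 encodes E-cadherin, the adhesion protein of epithelial junctions (chromosome 8, 106603351 to 106670246, + strand). Its K4me3 peaks covered 4680, 3412 and 4668 bases in the 3 control mice and 4692, 4630 and 4691 in Ezh2ΔSET mice. Control replicate 2 was lowest. In the other 5 mice the peak ran past the end of the window, to between 4.305 and 5.442 kb after the first start, so their closeness in covered bases is set by the window. The widest peak had 5250, 3412 and 5372 bases in control and 5236, 5143 and 6341 in Ezh2ΔSET mice. A stretch of 3412 bases, from -0.60 to 2.82 kb around the first start (negative values lie before it), lay under a peak in all 6 mice. The mean width of the widest peak was 5126 ± 949 bases (SD, n = 6), and 3.16% of all genes had a wider mean. K27me3 reached Cdh1 in control replicate 2 alone, where a peak of 9158 bases spanned the start.

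Vim encodes vimentin, the intermediate filament of mesenchymal cells (chromosome 2, 13573927 to 13582826, + strand). Its K4me3 peak covered 2944, 4499 and 3299 bases in control and 3223, 3217 and 2764 in Ezh2ΔSET mice. The widest was in control replicate 2, the mouse with peaks at 4 leukocyte markers. The bases from -0.45 to 2.30 kb around the first start were covered in all 6. K27me3 touched the window once, with 657 bases in Ezh2ΔSET replicate 1. A mesenchymal marker gene therefore had K4me3 and no steady K27me3 in whole pancreas of both genotypes.

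Snai1 encodes SNAIL, a zinc finger repressor of Cdh1 (chromosome 2, 167538195 to 167542814, + strand). K4me3 covered 501, 1145 and 501 bases in control and 675, 0 and 0 in Ezh2ΔSET mice. Another transcript, Gm11474, starts in this window, so a peak there cannot be given to Snai1 alone. Only peak positions were used, so how strong these calls were is not known. A width of 501 bases is the narrowest in the K4me3 lists, and 2 mice had a wider peak. The widest was again in control replicate 2. Snai1 had no K27me3 within 50 kb on either side in any mouse.

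Snai2 encodes SLUG, the relative of SNAIL (chromosome 16, 14705852 to 14709385, + strand). Its K4me3 covered 1850, 1510 and 3030 bases in control and 2056, 3149 and 2045 in Ezh2ΔSET mice. The groups overlapped, and the bases from -0.75 to 0.76 kb around the start were covered in all 6. K27me3 covered 854, 6001 and 3192 bases in control and 1765, 2955 and 1728 in Ezh2ΔSET mice. The whole window was under K27me3 in control replicate 2 alone. All 6 mice shared a K27me3 stretch from 2.15 to 6.24 kb after the start, downstream of the shared K4me3, and a K27me3 peak covered the start site itself in 2 of the 3 control mice and in 0 of the 3 Ezh2ΔSET mice. Peaks of the 2 marks overlapped in 3 of the 6 mice, by up to 2256 bases in control replicate 3.

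Zeb2 encodes a zinc finger and homeobox repressor (chromosome 2, 44983632 to 45117395, - strand). The antisense gene Zeb2os, Mir5129 and 3 predicted transcripts start in its windows, so a peak there cannot be given to Zeb2 alone. K4me3 covered 3623, 6756 and 2701 bases in control and 629, 3518 and 1862 in Ezh2ΔSET mice. Control replicate 2 was far above the rest, which reached 3623 at most. K27me3 covered 0, 8534 and 8103 bases in control and 6714, 1182 and 7530 in Ezh2ΔSET mice. It was absent in control replicate 1 alone. Of the 5 mice with both marks, 4 had overlapping peaks, the broadest overlap being 4174 bases in control replicate 2. A K4me3 stretch from 0.50 to 1.00 kb after the first start was shared by all 6 mice. The inner start printed above lies 7.12 kb after the first start. A K4me3 peak covered it in 3 of 6 mice (control replicates 1 and 2 and Ezh2ΔSET replicate 2), and a K27me3 peak in none.

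Zeb1, the paralogue of Zeb2 on chromosome 18, has starts in 3 separate windows, and 2 other transcripts (Gm10125 and Gm2238) start among them. Its K4me3 lay at the first start and at a start 11.9 kb farther in, in all 6 mice, and never at a start 139 kb farther in. K27me3 showed the converse: it was present at the start 139 kb into the gene in 5 mice and near the first start in 2, control replicate 3 and Ezh2ΔSET replicate 3. At that far start it covered 1636, 0 and 4481 bases in control and 6001, 1694 and 6001 in Ezh2ΔSET mice, and the groups overlapped. The 5 mice with both marks at Zeb1 therefore had them mostly at different starts, and peaks of the 2 marks overlapped in 1 mouse, by 85 bases. Upstream of the gene, all 6 mice shared a K27me3 stretch from -40.85 to -30.31 kb around the first start.

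**Figure D2:**
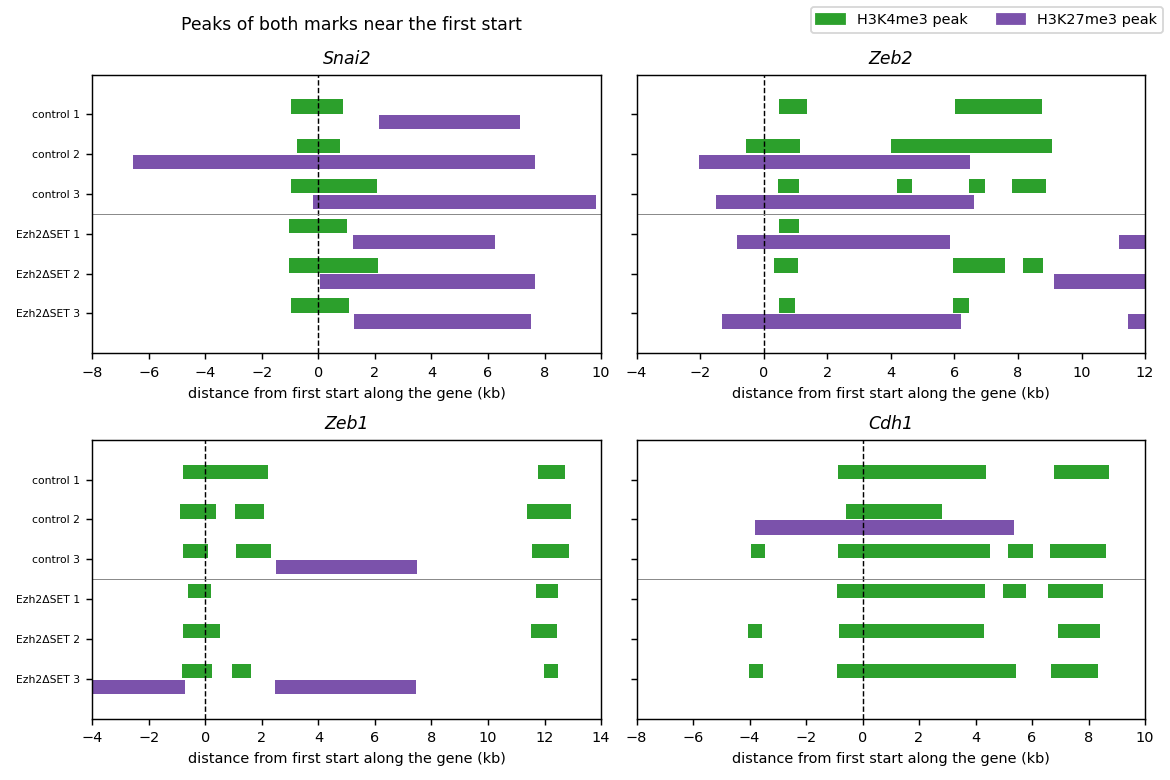
Positions of K4me3 peaks (green) and K27me3 peaks (purple) in each mouse (rows) against distance from the first start in kb (dashed line at 0, gene direction to the right) at Snai2, Zeb2, Zeb1 and Cdh1. At Snai2 all 6 mice have K27me3 from 2.15 to 6.24 kb, and at Cdh1 the one K27me3 bar is in control replicate 2.

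Twist1 encodes a basic helix-loop-helix factor that binds E-boxes (chromosome 12, 33957671 to 33959829, + strand). Its window was covered by K27me3 for 4070, 6001 and 6001 bases in control and 3638, 5672 and 5958 in Ezh2ΔSET mice. The window has 6001 bases, so control replicates 2 and 3 had it covered in full. The widest peak at the gene ran from 9403 to 80670 bases, and 0.742% of all genes had a wider mean. Within 50 kb on either side, K27me3 covered 82.0 ± 5.72 kb in control and 80.2 ± 5.93 kb in Ezh2ΔSET mice (SD, n = 3 each). Over the 6 mice the mean was 81.1 kb, and 102 genes (0.456%) had more. All 6 mice shared the stretches from -48.43 to -1.45 kb and from 1.13 to 24.04 kb around the start, and the bases between them were free of K27me3 peaks in some mice. Ferd3l, another gene of the same protein class, starts within this domain. K4me3 was called once, at 501 bases in control replicate 1.

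Twist2, the relative of Twist1 (chromosome 1, 91801461 to 91848028, + strand), had no K4me3 in any mouse. Another transcript, Gm29100, starts in its window, so a peak there cannot be given to Twist2 alone. K27me3 covered 0, 6010 and 5355 bases in control and 2539, 0 and 5571 in Ezh2ΔSET mice. It was called in 2 of 3 mice of each genotype. Its domain was smaller than that of Twist1: K27me3 covered 11.5 ± 9.57 kb (SD, n = 6) within 50 kb on either side.

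**Figure D3:**
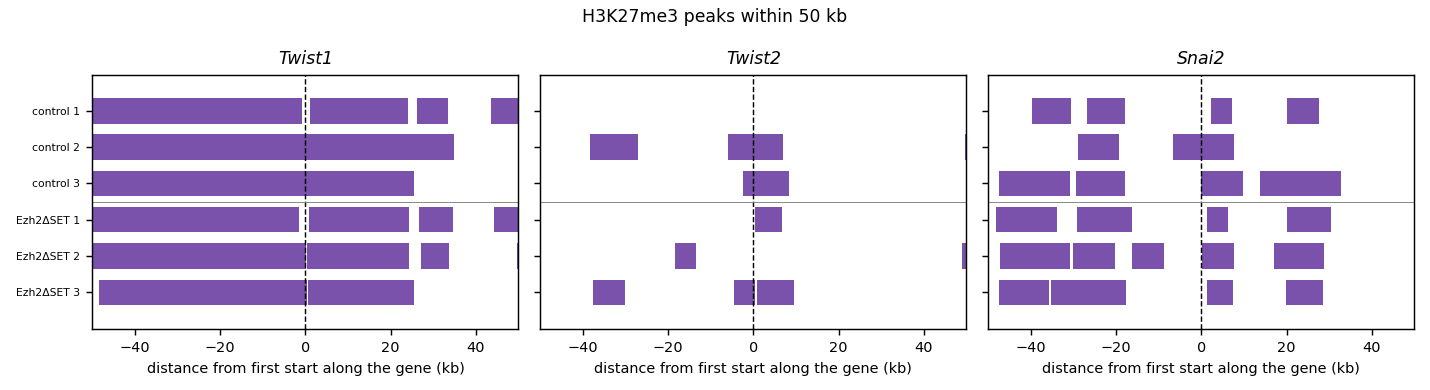
K27me3 peaks (bars) in each mouse (rows) within 50 kb of the first start (dashed line) of Twist1, Twist2 and Snai2, in kb along the gene. Twist1 lies in a broad domain in all 6 mice, Twist2 has a peak near its start in 4 mice, and the start of Snai2 lies under a peak in control replicates 2 and 3 and beside peaks in the other 4 mice.

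Cdh2 encodes N-cadherin, the mesenchymal and neural counterpart of E-cadherin. Its K4me3 covered 1233, 0 and 0 bases in control and 501, 1002 and 501 in Ezh2ΔSET mice. A peak was called in 1 of 3 control and 3 of 3 Ezh2ΔSET mice, and 1 of these 4 mice had a peak wider than the narrowest width. K27me3 covered 0, 6785 and 3097 bases in control and 2389, 0 and 2728 in Ezh2ΔSET mice. The mouse at 6785 bases, control replicate 2, was also the one with the whole Snai2 window under K27me3. The 2 cadherins thus differed in every mouse: Cdh1 had broad K4me3 in all 6, and Cdh2 had narrow peaks or none.

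The genotypes were compared by the covered bases of each gene, with limma across all genes that had a peak in at least 3 of the 12 mice of the fit. No member was called at an adjusted p under 0.05. For K4me3, 14220 genes and 7 members were tested and 8 genes (0.0563%) were called. For K27me3, 4668 genes and 6 members were tested and 0 genes (0%) were called. At an unadjusted p under 0.05 limma had 899 genes for K4me3, with 1 member among them (Zeb1), and 183 genes for K27me3, with 0 members. Over all genes, leaving out control replicate 2 raised the K4me3 calls to 21, and leaving out Ezh2ΔSET replicate 1 or 3 lowered them to 2. For K27me3, leaving out Ezh2ΔSET replicate 2 gave 6 calls, and leaving out the 4 mice of the fit with leukocyte marker peaks gave 71, of which 54 were higher and 17 lower in Ezh2ΔSET mice. No member was among any of these.

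The median K4me3 difference of the 7 members, Ezh2ΔSET minus control, was -491 bases, beside 90.7 over all genes tested. Without control replicate 2 it was -53.5, beside 17 over all genes. For K27me3 the median of the 6 members was -744 bases, beside 78.2 over all genes, and without control replicate 2 it was 142, beside 514. The K27me3 median also changed in size with other mice, being -2713 without control replicate 1, -124 without control replicate 3, -146 without Ezh2ΔSET replicate 2 and -1005 and -1293 without Ezh2ΔSET replicates 1 and 3. With the widest peak in place of covered bases it was -2984. Without the mice with leukocyte marker peaks it was 1194, beside 624 over all genes. The K4me3 median was -163.5 there, beside 11 over all genes, and -176 with a window of 1 kb, beside 24. It was from -598 to -361 without any other mouse of the 2 groups, beside 83.2 to 150.

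Zeb1 was the member whose genotypes did not overlap for K4me3. Its peaks covered 3969, 3882 and 3412 bases in control and 1630, 2228 and 2210 in Ezh2ΔSET mice. Every Ezh2ΔSET mouse was below every control mouse. The means were 3754 ± 300 in control and 2023 ± 340 in Ezh2ΔSET mice (SD, n = 3 each). The difference was -1732 ± 430 bases (SE) with an adjusted p of 0.457 in limma. The exact two-sided permutation test gave 0.1, the smallest p that 3 mice against 3 allow. Groups did not overlap for 11.6% of all genes tested, so 1 of 7 members was near the background. Of these 1653 genes, 1345 were higher and 308 lower in Ezh2ΔSET mice. Smaller groups are apart more often by construction, so the share that follows cannot be set against 11.6%. Without control replicate 2 the groups were apart for 22.7% of genes tested, 1813 higher and 1422 lower. Zeb1 was the member among the lower in both counts. The limma calls for K4me3 likewise went from 6 higher and 2 lower to 5 higher and 16 lower without that mouse, and to 5 and 14 without the mice with leukocyte marker peaks.

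A K4me3 peak reached the stretch from 1 to 3 kb after the first start in 3 of 3 control and in 1 of 3 Ezh2ΔSET mice. In the window of the first start, K4me3 covered 3020, 2328 and 2111 bases in control and 833, 1304 and 1709 in Ezh2ΔSET mice. At the start 11.9 kb into the gene it covered 949, 1554 and 1301 bases in control and 797, 924 and 501 in Ezh2ΔSET mice. At both starts the Ezh2ΔSET mice were all below the control mice. Taking the width of the widest peak in place of the covered bases gave a difference of -898 bases with an adjusted p of 0.772 in limma, and there the groups overlapped: the widest peak had 3020, 1554 and 1301 bases in control and 833, 1304 and 1043 in Ezh2ΔSET mice. Leaving out 1 mouse of the fit that is in neither group brought the adjusted p to 0.0208 in limma, through the spread that all groups share, whereas a fit of the 6 mice alone gave 0.25.

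**Figure D4:**
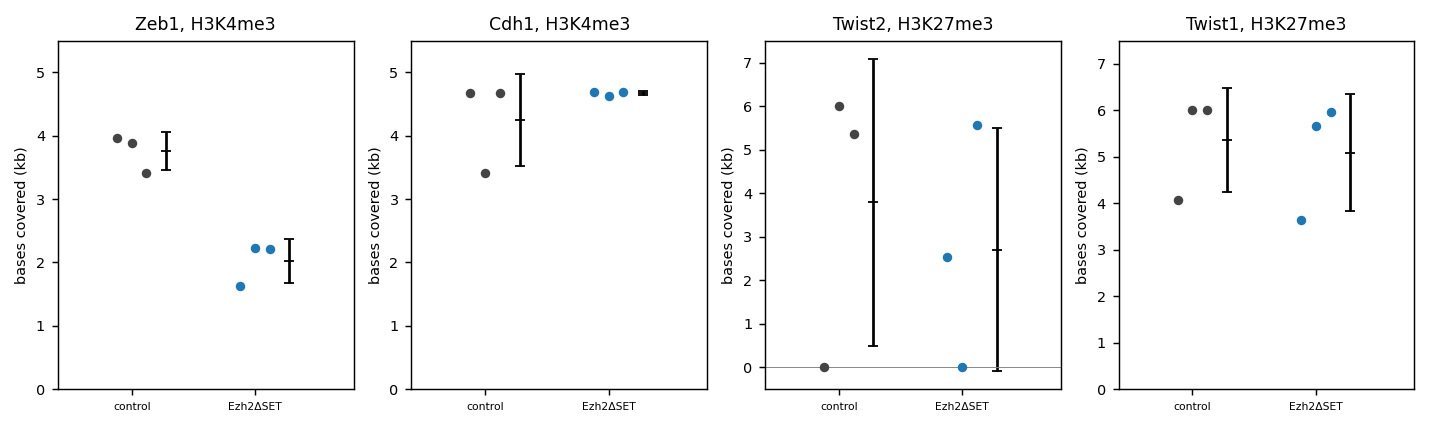
Covered bases (kb) of single mice (points) with mean and SD (black bars, n = 3) by genotype for K4me3 at Zeb1 and Cdh1 and K27me3 at Twist2 and Twist1. Zeb1 points of Ezh2ΔSET mice lie below all control points, and the groups overlap in the other 3 panels.

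The other members' groups overlapped for both marks. For K27me3 no member's groups were apart, beside 3.86% of genes tested. The largest K4me3 difference by size was at Zeb2, -2357 ± 1558 bases (SE) with an adjusted p of 0.75 in limma. At Zeb2 control mice had an SD of 2126 around a mean of 4360 bases. Control replicate 2 had 6756 bases there and the other control mice 3623 and 2701, and the rank of Zeb2 above Zeb1 rests on that mouse. The K27me3 difference at Zeb1 was 3296 ± 2674 bases (SE) with an adjusted p of 0.87 in limma. At Twist1 it was -268 ± 894 bases (SE) with an adjusted p of 0.982 in limma. A p that misses the threshold does not show that the genotypes were alike.

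The microRNAs that act on Zeb1 and Zeb2 messages are shown with their mature sequences from RefSeq (GRCm38.p6), the seed (bases 2 to 8) in capitals, because the seed splits them into 2 groups. The first group shares AAUACUG.
miR-200b-3p: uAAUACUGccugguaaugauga
miR-200c-3p: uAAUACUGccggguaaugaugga
miR-429-3p: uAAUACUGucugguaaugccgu
The second group shares AACACUG.
miR-200a-3p: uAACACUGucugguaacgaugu
miR-141-3p: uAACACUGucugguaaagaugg
Of a list of 6 genes (miR-200 family and miR-205), 3 were matched by symbol (Mir200b, Mir429 and Mir141). Mir200b and Mir429 belong to the same cluster and can share a peak. All 3 had K4me3 within 3 kb in all 6 mice, beside 56.6% of all genes. They had K27me3 in none, and most genes did not have it either: 33.1% of all genes had it in at least 1 mouse.

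Among 16 epithelial junction genes and their regulators, 15 had K4me3 in all 6 mice, as Cdh1 did, beside 56.6% of all genes, and Cldn4, chosen after its value was seen, had it in none. None of the 16 had K27me3 in all 6, beside 3.56% of all genes. The calls of Cdh1 in all 12 lists were identical to those of 1716 other genes (7.67%), among them the junction genes Cldn3, Cldn7, Dsp, Ocln and Tjp1, the keratins Krt8 and Krt18, the regulators Grhl2 and Ovol2, the pancreas genes Ctrb1, Ptf1a, Rbpjl and Sox9, and also the cadherin Cdh3 and the fibroblast collagen gene Col1a1. In all of them the lone K27me3 call was in control replicate 2. Cdh2 matched no other gene, Snai1 matched 1, Zeb1 3, Vim 10, Twist1 11, Twist2 79, Zeb2 91 and Snai2 132. The genes with the calls of Zeb2 included the cadherin Cdh6 and the fibroblast marker Pdgfra. The likeness is a count of equal calls over 6 mice and 2 marks, which share libraries.

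Of 16 mesenchymal genes, 6 had K4me3 in all 6 mice, beside 56.6% of all genes, and 3 had K27me3 in all 6, beside 3.56%. The latter, Cdh11, Lox and Gsc, were chosen after their values were seen. Cdh11, a mesenchymal cadherin, and Lox, an enzyme that crosslinks collagen, had no K4me3 in any mouse, as Twist2 did, and Gsc had both marks in all 6, as Snai2 and 0.594% of all genes did. Among 12 other cadherins, 3 had K4me3 in all 6 mice (Cdh3, Cdh4 and Cdh6, named after their values were seen), beside 56.6% of all genes. At 8 of the 12 there was none in any mouse, whereas 65.2% of all genes had K4me3 in at least 1. No gene of these lists was called by limma for either mark. Groups did not overlap for K4me3 at 1 of the 15 epithelial genes tested and at none of the mesenchymal, cadherin and microRNA genes, beside 11.6% of all genes tested. This gene, Epcam, had K4me3 that covered 2650, 1323 and 3384 bases in control and 3756, 3498 and 3558 in Ezh2ΔSET mice, with an exact permutation p of 0.1.

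The markers of stromal cells were read in the same way, and those named were chosen after their values were seen. K4me3 was found in all 6 mice at 2 of 7 fibroblast markers (Pdgfra and Col1a1) and at 2 of 6 endothelial markers (Kdr and Egfl7), beside 56.6% of all genes, while Col1a2, Lum, Des, Cdh5 and Tie1 had none in any mouse. Summed over the 6 endothelial markers, covered bases ran from 1976 to 6477 in control and from 1850 to 3322 in Ezh2ΔSET mice. The highest, control replicate 2, owed this to Pecam1, which had 4264 covered bases there and none in the other 5 mice, while Kdr (1438 bases) and Egfl7 (775) lay within the range of the other mice and Tek had none. Summed over the 7 fibroblast markers, they were 4550, 1749 and 5513 bases in control and 3240, 2972 and 4425 in Ezh2ΔSET mice. Control replicate 2 was the lowest, and the other control mice were above every Ezh2ΔSET mouse. The part of these cells in the members' values was not tested.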

How the data were processed

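K4me3 and K27me3 were measured by ChIP-Seq in pancreas of 3 control and 3 Ezh2ΔSET mice, with 6 input libraries. The authors checked reads with FastQC, used bowtie2 for alignment to mm10, and ran HOMER findPeaks in histone mode for every mouse with its input as background. The deposited lists hold peak positions, used here as peak widths and covered bases. The narrowest width was 501 bases for K4me3 and 5001 for K27me3, and no 2 lists were identical. The depth per library is unknown, so no counting interval is given, and tests measure only the spread between mice.

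Peaks were joined to GENCODE vM21 starts on the same build (22379 of 55413 genes, those with an Entrez identifier). A gene was called when a peak overlapped the window within 3 kb of a start by at least 1 base. Covered bases were compared with limma 3.58.1 (R 4.3.3, trended variance, Benjamini-Hochberg over all genes with a peak in at least 3 mice; the fit held 12 mice, of which 6 belong to genotypes that, like 1 marker gene, are not reported here and served the filter and the shared spread), and single members with two-sided exact permutation tests (Python 3.11.15, numpy 2.4.6, pandas 2.3.3, matplotlib 3.10.9). The limma script was tested on simulated data. The alternatives were other windows, peak midpoints, equal numbers of peaks, widest peaks, no filter, a replicate block, each mouse left out and, chosen after the data were seen, peaks wider than the narrowest width, the 4 mice of the fit with leukocyte marker peaks left out, the 6 mice alone, and other settings for the genes called in all 3 mice of a genotype and for the groups that do not overlap.

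The members and gene lists were chosen with earlier results of these data known. All 9 members are named. Other list genes are named where their calls equal those of a member in the 12 lists used, or for at most 4 per list with the largest difference between groups that do not overlap. List genes and leukocyte, fibroblast and endothelial markers named outside this rule were chosen after their values were seen.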

Additional observations from a re-analysis of the deposited data

How the results depend on the processing

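The mean share of the 9 genes called per mouse is 74.1% and 70.4% for K4me3 in control and Ezh2ΔSET mice, 55.6% and 63.0% for K27me3, and 33.3% and 44.4% for both marks, beside 61.0% and 61.6%, 16.1% and 13.9%, and 6.08% and 3.96% of all genes. The values that moved by more than 1 SD over the 3 mice of a genotype are as follows. For both marks in control that SD was 0, so any change counted as moved. For K27me3 in control the SD was 19.2%, so its falls are not in the list. It was 40.7% with equal numbers of widest peaks, 48.1% with the 1 kb window and 40.7% above the narrowest width. Over all genes these shares were 14.7%, 13.2% and 13.3%. With equal numbers of widest peaks, K4me3 fell to 59.3% in control and 44.4% in Ezh2ΔSET mice, K27me3 to 44.4% in Ezh2ΔSET mice, and both marks to 18.5% and 14.8% in control and Ezh2ΔSET mice (all genes 58.2% and 56.9%, 14.7% and 11.9%, and 5.34% and 2.46%). With the 1 kb window, K27me3 was 44.4% in Ezh2ΔSET mice, and both marks 25.9% in each genotype (all genes 11.3% for K27me3 in Ezh2ΔSET mice, and 4.47% and 2.71% for both). With peak midpoints, K27me3 was 33.3% in control and 22.2% in Ezh2ΔSET mice (8.32% and 6.63% of all genes). Overlapping peaks of both marks gave 22.2% and 18.5% (3.7% and 2.01% of all genes). With peaks above the narrowest width (chosen after seeing the data), K4me3 was 59.3% and K27me3 40.7% in Ezh2ΔSET mice, and both marks 18.5% in control and 25.9% in Ezh2ΔSET mice (all genes 60.2%, 11.4%, 4.84% and 2.97%). Equal numbers and the minimum width use fewer peaks by construction, and the 1 kb window, midpoints and overlap are stricter rules.

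The number of members called by limma was 0 in both marks and every alternative except for K4me3, where leaving out single mice gave 0 to 1 (Zeb1, without 1 mouse of the fit that is in neither group). Over 19 alternatives the adjusted p of that Zeb1 difference ran from 0.0208 to 0.936. With the 4 mice with leukocyte marker peaks left out (chosen after seeing the data) it was 0.156, and in a fit of the 6 mice alone (also chosen later) 0.25. The first of these settings gave 19 calls over all genes for K4me3 (5 higher, 14 lower in Ezh2ΔSET mice) and 71 for K27me3 (54 higher, 17 lower), and the second 0 and 0, with no member among them. In the fit of the 6 mice alone, limma had 613 and 112 genes at an unadjusted p under 0.05. Same-numbered mice deviated together weakly for K4me3 (correlations from 0.0668 to 0.24) and not for K27me3 (from -0.136 to 0.0609), over 3 pairs. Of 6 mice, 5 were closest to their own number for K4me3 and 0 for K27me3. The mean was 0.173 for the same number and -0.0833 for other numbers in K4me3. Since not every correlation was over 0.1 and the labels give no shared litter or day, the numbers were not taken as pairs. A structure shared by number in the K4me3 lists is not excluded by this. With the replicate block 0 members were called, the Zeb1 adjusted p was 0.714, and the K4me3 calls over all genes went from 8 to 4. Without a filter, limma warned that its variance estimate for K27me3 was unreliable. Peak lists carry no depth, and calls at the narrowest width, which leave 2 of 4 K4me3 calls at Snai1 and 1 of 4 at Cdh2 with a wider peak, may depend on it.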
